A study of Mus musculus with 28 samples.

Results

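Kept contacts were those between a gene promoter and a distal DNA fragment that were listed at all 4 time points while C10 cells, a Pre-B cell line, were converted into macrophage-like cells. They were taken from the Promoter Capture Hi-C (PCHi-C) lists as unordered pairs of a bait and a non-bait fragment on one chromosome, with 50 kb to 1 Mb between fragment midpoints, present at 0h, 1h, 12h and 48h. A fragment was a bait if it stood first in any list. Of the 203210 contacts of this kind in any list, 33316 (16.4%) were kept. The members were thus chosen by their presence in the lists, and so by the scores behind it, and neither is tested here.

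C10 cells derive from HAFTL cells and carry a transgene of C/EBPα fused to the estrogen receptor (C/EBPαER) in every sample, 0h included. The 0h cells were uninduced, and the 1h, 12h and 48h cells had 100 nM β-estradiol, which moves the fusion protein into the nucleus, with IL-3 and CSF-1. As a model it is 1 cell line, in which a transgene and not the cell's own C/EBPα starts the conversion. Each PCHi-C list merged 2 biological replicates and has no replicate error, whereas RNA-seq had 3 biological replicates per time point, 12 libraries in all.

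A promoter reaches a distal enhancer when the DNA between them is folded into a loop. Cohesin extrudes such loops and is halted by CTCF, preferentially where 2 CTCF motifs point toward each other, while other contacts depend on transcription factors that differ between cell types. PCHi-C detects both, as HindIII fragments ligated to a captured promoter fragment, and the distal fragment is called a promoter interacting region (PIR).

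The CTCF motif can be read in the sequence at both ends of 260 kept contacts. The 4 with the highest 0h score, 1 per bait, that had a single inward-pointing copy at each end are shown with 20 bases on either side, on the strand of the motif and with its 12 letters in capitals (RefSeq sequence of GRCm38, the mm10 build). At Cdc16, which encodes a subunit of the anaphase-promoting complex, the bait copy lay on the minus strand between genes at chr8:13753852-13753903 and the PIR copy on the plus strand in an intron of 1700029H14Rik at chr8:13551129-13551180. At the small nuclear RNA gene Gm25153 both copies lay in introns of Bcar3, an adaptor protein gene, the bait copy on the minus strand at chr3:122468180-122468231 and the PIR copy on the plus strand at chr3:122312236-122312287. At Enc1, which encodes an actin-binding protein, the bait copy was on the plus strand between genes at chr13:97235202-97235253 and the PIR copy on the minus strand in an intron of Arhgef28 at chr13:97939053-97939104. At Bach2, a transcriptional repressor of the B cell lineage, the bait that also holds the start of the antisense gene Bach2os had its copy on the minus strand in a Bach2 intron at chr4:32572282-32572333, and the PIR copy lay on the plus strand between genes at chr4:32055288-32055339.
Cdc16 bait: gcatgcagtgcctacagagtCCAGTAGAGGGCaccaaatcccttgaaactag
Cdc16 PIR: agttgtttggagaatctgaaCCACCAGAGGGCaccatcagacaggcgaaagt
Gm25153 bait: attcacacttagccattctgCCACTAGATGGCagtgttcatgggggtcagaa
Gm25153 PIR: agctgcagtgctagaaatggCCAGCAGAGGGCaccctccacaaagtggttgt
Enc1 bait: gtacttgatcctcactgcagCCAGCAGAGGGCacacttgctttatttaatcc
Enc1 PIR: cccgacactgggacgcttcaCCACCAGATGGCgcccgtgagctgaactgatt
Bach2 bait: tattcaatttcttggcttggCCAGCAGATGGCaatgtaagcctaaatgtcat
Bach2 PIR: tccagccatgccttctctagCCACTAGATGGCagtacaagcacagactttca

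The values of these 4 contacts in the lists were as follows. The Cdc16 contact spanned 206 kb, with a CHiCAGO score of 35.1 at 0h and 42, 45 and 59 read pairs at 1h, 12h and 48h. The Gm25153 contact spanned 155 kb, with a score of 34.1 and then 74, 56 and 78 read pairs. The Enc1 contact spanned 703 kb, with a score of 33.8 and then 28, 26 and 44 read pairs. The Bach2 contact spanned 521 kb, with a score of 33.8 and then 38, 26 and 35 read pairs. The median 0h score over all kept contacts was 9.16, and the 4 shown were picked for high scores. The 0h list holds scores and the later lists whole numbers whose unit is not named. They were read as read pairs, and neither was compared with the other.

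The kept contacts made up 33.3% of the contacts of this kind at 0h (95% Wilson interval 33.0% to 33.6%) and 34.0% of those at 1h (33.7% to 34.3%). The share was 35.5% for the 12h list (35.2% to 35.8%) and 30.5% for the 48h list (30.3% to 30.8%). These intervals cover counting error only. Being in all lists was the most common of the 15 possible combinations. The next was presence at 48h alone, with 31567 contacts, followed by 0h alone with 24432, 1h alone with 23969 and 12h alone with 19729. Each combination of 3 lists held between 6736 and 7093 contacts.

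**Figure D1:**
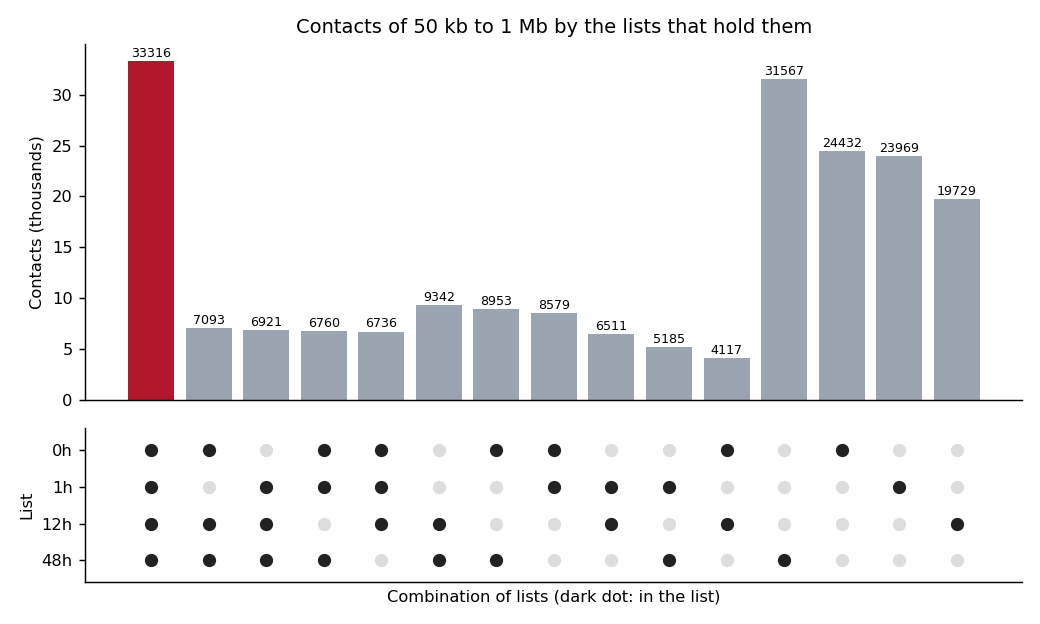
Number of contacts of 50 kb to 1 Mb (bars, with the number above) in each combination of the 4 PCHi-C lists (dark dots), with kept contacts in red. The red bar, 33316, is the highest and 48h alone, 31567, comes next.

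Kept contacts carried more signal and were shorter than the rest, which is a description, since presence in a list rests on the same values. Their 0h scores ran from 5 to 93 with a median of 9.16, against 6.18 for the other contacts listed at 0h. Their median number of read pairs in the 1h, 12h and 48h lists was 21, 16 and 19, against 13, 11 and 12 for the others. The median distance was 179.5 kb, against 195 kb for contacts in 3 lists, 208 kb in 2 and 235 kb in 1. The kept share fell from 20.9% at 50 to 100 kb to 8.70% at 700 to 1000 kb. Near the limits of the rule, the 100 contacts just beyond 50 kb had a median 0h score of 7.94 and the 100 just below it 8.09, while the 100 just within 1 Mb had 10.9 and the 100 just beyond it 13.1.

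Contacts that missed 1 list often had a neighbour there. Of the 6921 absent only at 0h, 76.0% had a PIR within 10 kb listed for the same bait at 0h. The same share was 82.8% of the 7093 absent only at 1h, 80.7% of the 6760 absent only at 12h and 68.8% of the 6736 absent only at 48h. Adjacent fragments were also kept together, and 61.4% of kept contacts stood in runs of at least 2 adjacent fragments at one bait. The longest run had 30 fragments, at Irf2bp2, and the 1004 runs of 5 or more had a median span of 21.8 kb.

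Between 1h and 48h the read pairs of most kept contacts changed no more than 2-fold. The rule favours this, since contacts that dropped out of a list are not members. As a share of the read pairs of all listed contacts of this kind, 547 (1.64%) were over 2-fold higher at 48h than at 1h and 2118 (6.36%) over 2-fold lower, with a median log2 ratio of -0.23. From 1h to 12h the median was -0.02, with 192 over 2-fold higher and 191 over 2-fold lower. These shares also depend on the length of the lists, with 97977 contacts of this kind at 1h and 109137 at 48h. Contacts in fewer lists were not compared, and no replicate error can be set beside these numbers.

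The kept contacts were spread unevenly over baits, and the spread of all contacts of this kind was not computed beside it. They came from 6060 of the 15480 baits with any contact of this kind, with a median of 3 per bait, and 993 baits with 10 or more held 53.2% of them. At 735 of these 993 baits (74.0%) at least 90% of the kept contacts lay on one side of the promoter. When all contacts of the same baits were counted, 539 met that limit.

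The bait with the most kept contacts was that of Irf2bp2 (chr8:126588296-126593986, minus strand), which encodes a transcriptional corepressor. It kept 84 of 106 contacts, 80 of them on the side of higher coordinates, at 55.5 to 371 kb. The 4 lists held 105, 98, 92 and 88 of its contacts in order of time, so that 84 of the 88 listed at 48h had been there throughout. Itga4, which encodes the integrin α4 chain of an adhesion receptor, kept 69 of 102, and all 69 lay on the side of lower coordinates, upstream of its start (chr2:79255426-79333123, plus strand). Car2, which encodes carbonic anhydrase 2, kept 56 of 106, with 55 on the side of higher coordinates. Glcci1, a glucocorticoid-induced gene, shared a bait with A430035B10Rik that kept 56 of 129, with 30 on one side and 26 on the other. Fancc, a gene of the Fanconi anaemia DNA repair complex, shared its bait with the antisense gene Gm16133, and that bait kept 56 of 109, all on the side of lower coordinates. Snhg6, the host gene of the small nucleolar RNA Snord87, and the pseudogene Gm5176 kept 54 each.

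Of these baits 3 stood beside Ikzf1, which encodes the lymphoid transcription factor Ikaros (chr11:11685003-11772926, plus strand), and its bait was added to them. The bait shared by the testis genes Zpbp and Spata48 kept 62 of 106 contacts, that of Gm11998 54 of 94, that of Gm12000, an antisense gene inside Ikzf1, 56 of 91, and that of Ikzf1 itself 24 of 75. All 24 PIRs of Ikzf1 were also kept with Gm12000, 42.9% of the 56 PIRs of Gm12000. Zpbp and Gm11998 shared 35, 56.5% of those of Zpbp and 64.8% of those of Gm11998. Zpbp shared none with Ikzf1. In all the 4 baits kept 122 PIRs, of which 61 were kept with at least 2 of them.

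Apart from Irf2bp2, which kept 79.2%, the 5 largest shares were kept at baits with fewer contacts. Dusp5, which encodes a phosphatase of ERK kinases, shared its bait with AC137853.2 and kept 22 of 23 contacts (95.7%) in one unbroken run of 22 fragments 50.3 to 131 kb away. Snora20, a small nucleolar RNA gene, kept 9 of 11 (81.8%). Spred1, which encodes an inhibitor of Ras and ERK signalling, kept 49 of 60 (81.7%), and Wnk1, a kinase gene of ion transport, kept 22 of 27 (81.5%). By comparison, 1657 of the 6699 baits with 10 or more contacts kept none, and 195 kept at least 50%.

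**Figure D2:**
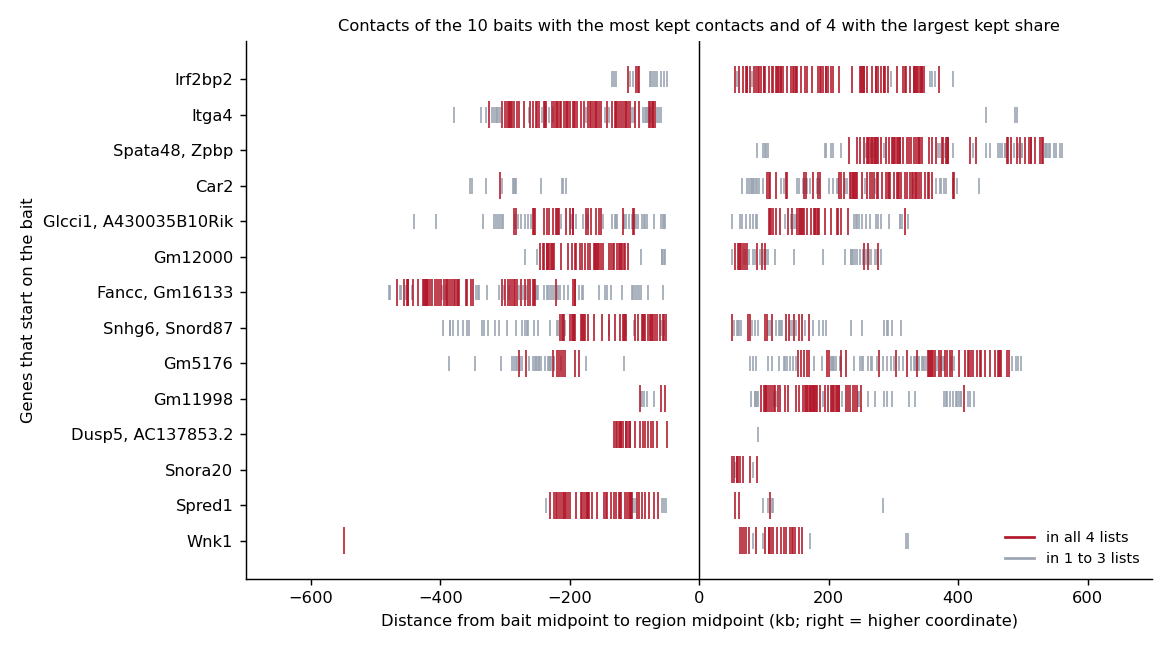
Contacts of the 10 baits with the most kept contacts and of the 4 others with the largest kept share (rows), drawn at their distance from the bait midpoint (kb, higher coordinates to the right). Red lines are kept contacts and grey lines contacts in 1 to 3 lists. At Itga4, Fancc and Dusp5 every red line lies to the left, and at the Zpbp and Spata48 bait every red line lies to the right.

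Most kept PIRs were kept with 1 bait, where contacts in fewer lists or at other distances were not counted. Of the 23688 fragments with a kept contact, 73.3% were kept with 1 bait and 286 with 5 or more. The highest number was 13 baits. A PIR between genes at chr7:30792265-30797084 was kept with 13 baits, among them those of Hamp, which encodes the iron hormone hepcidin, Ffar1, a fatty acid receptor gene, Usf2 and Fxyd3, at 62.9 to 314 kb. A PIR between genes at chr19:9105482-9108482 was also kept with 13, all at higher coordinates than the PIR, among them Slc3a2, an amino acid transporter gene, Eef1g, a translation elongation factor gene, and Ahnak. A PIR in Slc4a5 (chr6:83269412-83271945) was kept with 11 baits, one between genes at chr10:128452717-128454791 with 11, among them Cs, which encodes citrate synthase, and Il23a, and one in Trabd (chr15:89076951-89089022) with 11, among them Pim3, a kinase gene. None of these 5 PIRs held a CTCF motif or the palindromic C/EBP word TTGCGCAA. They do not stand for all shared PIRs. A CTCF motif was present in 5.27% of PIRs kept with 1 bait, 7.30% with 2, 9.60% with 3 to 4 and 10.1% with 5 or more. These shares were not split by fragment length, with which the motif share also rose. The C/EBP word occurred only 1.05 times per megabase of kept PIRs, so its absence from 5 fragments says little.

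The CTCF motif was searched as a degenerate consensus of 12 letters on both strands. It was present in 1425 of the 23688 kept PIRs (6.02%, 95% Wilson interval 5.72% to 6.33%), in 3.7% of fragments found in at most 3 lists, 3.44% in at most 2 and 2.78% in 1, and in 1.48% of all HindIII fragments of the genome. Per megabase there were 17.4 copies in kept PIRs, 11, 10.3 and 8.50 in the other groups and 4.97 in the genome. Kept PIRs held the most of the 4 groups by either count, and also within each of the 4 classes of fragment length. With the looser consensus of 9 letters the shares were 41.9% of kept PIRs and 38.6%, 39.1% and 36.4% in the other groups, a smaller difference. Under 2 kb the share was 2.33% in kept PIRs and 0.793% in those of 1 list, and over 10 kb it was 18.2% and 12.0%.

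The C/EBP word TTGCGCAA and the PU.1 word GAGGAAGT, each searched on both strands and able to share at most 1 base where they meet, were spread more evenly. The C/EBP word occurred 1.05 times per megabase in kept PIRs, against 1.00, 0.925 and 0.979 in those of 3, 2 and 1 lists and 0.828 in the genome. The PU.1 word occurred 69.3 times per megabase in kept PIRs, against 67.5, 65.7 and 66.0, and 62.3 in the genome. Such words are no record of binding, which was not measured in these files.

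The motif share also moved with the 0h score. Among contacts with a 0h score of 5 to 7 the PIR held a CTCF motif in 5.28% of 8487 kept contacts and in 4.27% of 45652 contacts of fewer lists. For scores of 15 or more it did so in 9.68% of 5422 and 7.93% of 416. The kept contacts had the higher share in all 4 classes of score. They had it also in all 4 classes of distance, with 6.45% at 50 to 100 kb and 7.54% at 400 to 1000 kb. Contacts of 1 list had 4.10% in both of these classes. Kept contacts share baits and adjacent PIRs, so these contacts are not independent of one another.

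Where a motif was present at both ends of a kept contact, the copies pointed inward in 133 of 247 cases. The 260 such contacts came from 198 baits, and 247 had copies of a single strand at each end. Of these 247, the 133 inward pairs were 53.8% (95% Wilson interval 47.6% to 60%), 100 lay on the same strand and 14 (5.67%) pointed outward. No share expected for motifs of random strand was computed. Inward pairs made up 41.7% of 115 contacts in 3 lists (33.1% to 50.9%), 40.4% of 183 in 2 (33.6% to 47.7%) and 38% of 303 in 1 (32.7% to 43.5%). These intervals treat contacts as independent, although the 260 kept contacts came from 198 baits, and are therefore too narrow. The difference between the groups was not tested. With a looser consensus of 9 letters the inward share was 30.1% of 4579 kept contacts and 28.0%, 28.3% and 28.0% of contacts in 3, 2 and 1 lists. By 0h score, 61.5% of 39 kept contacts pointed inward at 5 to 7, against 39.3% of 178 contacts of fewer lists. At 7 to 10 the shares were 46.2% of 65 and 43.1% of 72, and at 10 to 15 they were 50.6% of 79 and 50.0% of 20, so in these classes the shares were close. At 15 or more they were 60.9% of 64 and 0% of 2, too few to compare. Inward kept contacts had a median distance of 188 kb, and same-strand ones 163 kb.

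**Figure D3:**
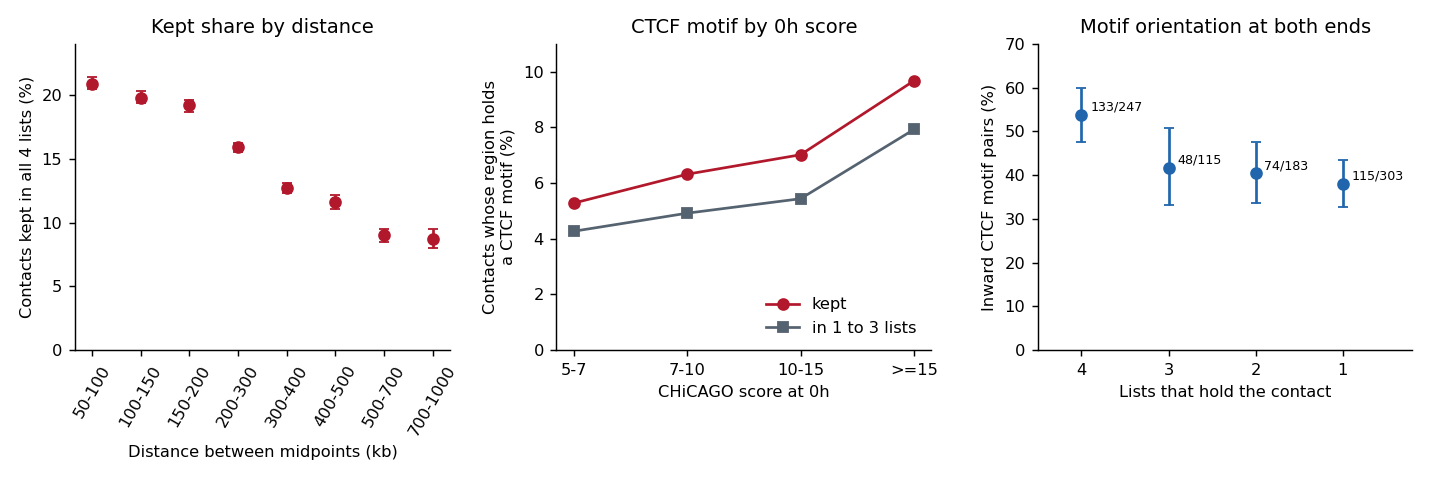
Left, share of contacts kept (%) by distance between midpoints (kb), with 95% Wilson intervals, falling from 20.9% to 8.70%. Middle, share of contacts whose PIR holds a CTCF motif (%) by 0h CHiCAGO score, kept contacts in red and contacts in 1 to 3 lists in grey, with red above grey in all 4 classes. Right, share of motif pairs that point inward (%, numbers of pairs beside the points, 95% Wilson intervals) by the number of lists, from 53.8% in 4 lists to 38% in 1.

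Kept contacts also lay on the side toward which a motif on the bait pointed. With motifs of a single strand on the bait, 2054 of 2995 kept contacts (68.6%, 66.9% to 70.2%) were on that side, and they came from 516 baits. The shares were 64.2%, 63.4% and 63.0% of contacts in 3, 2 and 1 lists. The strand belongs to the bait, and contacts of the same bait often lay on the same side. The interval treats contacts as independent and is therefore too narrow. Shares per bait were not computed, so the difference between these groups was not tested. Of the baits with most kept contacts, those of Car2 and Fancc held a motif, each on the minus strand in an intron of the gene (at Fancc also in an exon of Gm16133), at chr3:14892480-14892531 and chr13:63332758-63332809. They are shown because their kept contacts lay on opposite sides.
Car2 bait: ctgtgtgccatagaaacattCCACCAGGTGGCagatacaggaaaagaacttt
Fancc bait: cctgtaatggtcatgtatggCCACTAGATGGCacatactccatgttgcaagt
At Fancc the 56 kept contacts lay to lower coordinates, the side to which its motif points, whereas at Car2 55 of 56 lay on the other side. The baits of Irf2bp2, Itga4 and Dusp5, with 1-sided fields, held no match to the consensus.

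Kept contacts passed over fewer promoters than the rest. There were 1.25 protein-coding gene starts per 100 kb between the ends of kept contacts, against 1.42, 1.5 and 1.57 in contacts of 3, 2 and 1 lists. In 22% of kept contacts no such start lay between the ends, against 14.7% in contacts of 1 list. Kept contacts were also shorter, with a median of 179.5 kb against 235 kb, and shares at equal distance were not computed. The PIR midpoint lay in a protein-coding gene in 60.7% of kept PIRs and in 59.9% to 62.1% of the others.

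The RNA-seq data, which the choice of members did not use, show which genes stand on these promoters. TPM hold no record of depth. In each library CT010467.1 and AY036118 took 70.3% to 82.9% of the TPM, so levels of all other genes are relative to what was left. Summed TPM of 8 Pre-B markers (Cd79a, Pax5 and others) lay between 293 and 333 at 0h and between 26.9 and 38.4 at 48h. That of 7 macrophage markers (Csf1r, Itgam, Lyz2 and others) lay between 1.58 and 2.07 at 0h and between 175 and 247 at 48h. Of 16 markers of other cell types 10 were listed at 0 in every library. Their sum lay between 4.85 and 6.64 at 0h, between 7.02 and 8.59 at 12h, without overlap, and between 5.89 and 8.37 at 48h. Acta2, a smooth muscle actin gene, was the member called higher at 12h (log2 fold change 2.73, limma, adjusted p = 0.00401), from 0.32, 0.32 and 0.03 TPM at 0h to 1.43, 1.78 and 2.22. In these bulk samples fewer cells of a type and less RNA per cell cannot be told apart.

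Genes with kept contacts were expressed more often than genes without. Of the 23193 genes with a bait, 8221 had at least 1 kept contact, 5922 of them protein-coding. At 0h, 55.0% ± 1.76 (SD, n = 3) of these protein-coding genes reached 1 TPM, against 38.8% ± 0.973 of the 8369 with contacts of which none was kept and 27.9% ± 0.945 of the 2230 with no contact of this kind (SD, n = 3 each). With at least 5 kept contacts it was 58.7% ± 1.91 (SD, n = 3). At 48h the shares were 46.8% ± 2.25, 33.5% ± 1.53 and 22.3% ± 1.80 (SD, n = 3 each). At every time point all 3 libraries gave a higher share for genes with a kept contact than any library gave for genes without one. The median TPM of genes with a kept contact was 0.37, 0.36 and 0.34 in the 3 libraries at 0h and 0.21, 0.25 and 0.31 at 48h.

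The number of contacts a gene had to keep moved with its level, and its part in this order was not tested. At 0h, 32.4% of genes at a mean of 0 TPM and 50.7% of genes above 5 TPM had a kept contact, while the share of their contacts that was kept ran from 15% to 18.5%. At 48h the same shares were 32.4% and 52.5% of genes, and 15.3% and 18.4% of contacts. Genes are not independent replicates, since neighbours share baits.

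**Figure D4:**
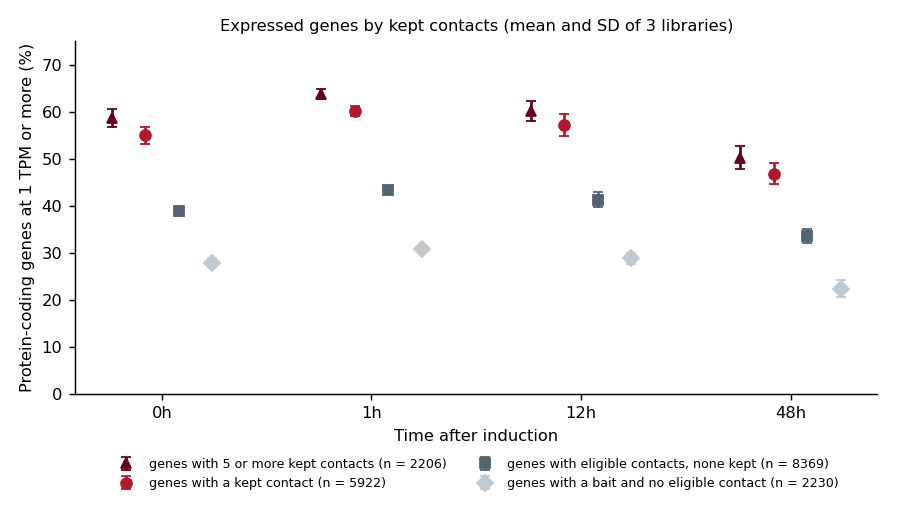
Share of protein-coding genes at 1 TPM or more (%, mean and SD of 3 libraries) at each time after induction, by the kept contacts of their baits. At 0h the 4 classes lie at 58.7%, 55.0%, 38.8% and 27.9%, and their order is the same at all 4 time points.

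Genes with kept contacts were called in numbers near those of all genes. Calls came from limma on log2(TPM + 0.1) against 0h, and needed a log2 fold change beyond 2 as well as an adjusted p (Benjamini-Hochberg) below 0.05. Of the 16415 genes tested, 5165 had a kept contact. At 1h, 141 of the 5165 (2.73%) were higher, against 3.59% of all genes tested, and 25 (0.484%) lower, against 0.378%. At 12h, 262 (5.07%) were higher, against 5.90%, and 125 (2.42%) lower, against 1.83%. At 48h, 283 (5.48%) were higher, against 6.43%, and 662 (12.8%) lower, against 10.0%. Their median log2 fold change was 0.50, 0.23 and -0.40 in order of time, against 0.59, 0.34 and -0.18 over all genes. Genes whose contacts were not kept had 5.37% higher and 11.3% lower at 48h. The balance of the calls depended on how libraries were scaled. For genes with a kept contact, higher calls were 84.9%, 67.7% and 29.9% of all calls at 1h, 12h and 48h, and with median-of-ratios scaling 52.4%, 54.9% and 43.4%. Over all genes they were 90.5%, 76.3% and 39.1%, and with that scaling 63.6%, 62.8% and 55.1%. The scaling brought the median of all genes to 0.01, 0.06 and 0.10.

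The share of contacts kept is given for genes called at 48h as a description, with no test. Of the contacts listed at 0h for genes called higher, 37.2% of 4184 were kept, and of those at 48h 27.1% of 5751. For genes called lower it was 32.1% of 12073 at 0h and 38% of 10200 at 48h, and for genes not called 33.3% and 32.2%. Contacts listed at 48h alone were 19% of all contacts of genes called higher and 11.1% of those called lower. A similar part of the genes had a kept contact, 48.7% of those called higher, 51.3% of those called lower and 47.7% of those not called.

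The genes with at least 3 kept contacts that rose most at 48h were 3 matrix metalloproteinases of one chromosome 9 cluster, Ifi202b and Thbs1. Mmp12, the macrophage elastase, was at 0, 0 and 0.02 TPM at 0h and at 490, 575 and 409 at 48h, with no overlap. It had 12, 17, 59 and 51 contacts in the 4 lists and kept 5, so that most of its contacts at 48h had not been listed at 0h. Its log2 fold change was 12.16 (limma, standard error (SE) 0.21, adjusted p = 2.74e-11). Mmp13, collagenase 3, was at 0, 0 and 0.02 TPM at 0h and at 100.2, 110 and 90.2 at 48h, and kept 17 of the 19 contacts listed at 0h, out of 63 at 48h. Mmp8, the neutrophil collagenase, was listed at 0 in all 0h libraries and at 36.2, 43.3 and 28.2 TPM at 48h, with 11 kept of 19 at 0h and 50 at 48h. Ifi202b, an interferon-inducible gene, was listed at 0 at 0h and at 105, 126 and 75.7 TPM at 48h, with 5 kept contacts. Thbs1, which encodes thrombospondin 1, was at 0.03, 0 and 0.01 TPM at 0h and at 43.7, 51.5 and 57.6 at 48h, with 9 kept contacts of 32 at 0h and 53 at 48h. All 5 genes were also called higher at 12h in limma. Their low 0h TPM and their kept contacts follow from how they were chosen.

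The genes that fell most at 48h were 3 histone genes, H19 and Gm44367, a miRNA gene annotated inside Hist1h2ai on the other strand and on the same bait. Histone genes of a family are near-identical copies, so the reads may have been divided between members. Strand was not stated for the counting, so reads of Gm44367 and of Hist1h2ai cannot be told apart and the 2 are not separate observations. Hist1h2af was at 83.2, 84.4 and 95.97 TPM at 0h and listed at 0 in all 48h libraries, and kept 13 of 29 contacts. Hist1h2ai was at 104, 83.7 and 138 TPM at 0h and at 0, 1.10 and 0 at 48h, with 8 of 39 kept. Hist2h3c2 was at 149, 144 and 182 TPM at 0h and at 0.54, 0 and 2.40 at 48h, with 9 of 47 kept. H19, an imprinted non-coding RNA gene, was at 346, 321 and 301 TPM at 0h and at 0.94, 0.52 and 0.74 at 48h, and kept 10 of the 18 contacts listed at 0h, with 13 at 48h. Its log2 fold change was -8.63 (limma, SE 0.20, adjusted p = 2.22e-10). Gm44367 was at 26.88, 16.47 and 18.8 TPM at 0h and listed at 0 in all 48h libraries. The genes were chosen for their decrease and their kept contacts, so that both occur together is no finding.

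Of 30 genes of the Pre-B program, 15 had a kept contact, and the list kept 24.8% of its 786 contacts, against 16.4% of all. Of these 195 kept contacts 152 belonged to 5 genes, Cd24a, Bach2, Foxo1, Lef1 and Ikzf1, and the rest of the list kept 12.7% of 339. The 5 were picked for many kept contacts, which lowers the share of the rest. In limma 24 of the 30 were lower at 48h, against 10.0% of all genes tested, and none higher, with a median log2 fold change of -3.19, and 12 of the 15 with kept contacts were lower. Cd24a, a surface glycoprotein gene of early B cells, kept 37 of 76 contacts and was at 33.34, 27.41 and 22.02 TPM at 0h and at 1.24, 1.28 and 1.08 at 48h. Bach2 kept 33 of 134 over both of its baits, and fell by 4.74 on the log2 scale at 48h (limma, SE 0.51, adjusted p = 1.58e-05). Lef1, a transcription factor of the Wnt pathway, kept 28 of 84 and fell by 3.79 (limma, SE 0.28, adjusted p = 6.76e-07). Myb, which encodes a factor of blood progenitors, kept 10 of 68 and fell by 5.13 (limma, SE 0.24, adjusted p = 2.12e-08). Foxo1, a factor that drives recombination genes in B cells, kept 30 of 78, was lower at 1h and 12h in limma, and at 48h was at 0.86, 0.94 and 1.14 TPM against 4.15, 2.88 and 2.80 at 0h. Ikzf1, at 33.9, 26.6 and 27.1 TPM at 0h and 8.13, 10.1 and 11.6 at 48h, did not pass the fold change limit (-1.55). Over the 28 genes of the list with contacts, 9 had more at 48h than at 0h, 5 the same number and 14 fewer, and their contacts summed to 483 at 0h and 501 at 48h. The 6 genes named were chosen for many kept contacts, and none of them had fewer at 48h than at 0h, with 64 and 59 for Cd24a and 51 and 30 for Ikzf1.

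Of 34 macrophage genes, 14 had a kept contact, and the list kept 13.8% of its 578 contacts, against 16.4% of all. At 48h, 21 of the 28 tested were higher in limma, against 6.43% of all genes tested, and none lower, with a median log2 fold change of 4.09, among them 10 of the 14 with kept contacts. Ctsc, the lysosomal protease cathepsin C, kept 6 contacts, which were all it had at 1h, and was listed with 8 at 0h and 21 at 48h. Its TPM were 8.47, 7.97 and 9.54 at 0h and 329, 391 and 356 at 48h. Btg1, an antiproliferative gene, kept 8 of the 15 contacts listed at 0h, with 57 at 48h, and its log2 fold change was 3.30 (limma, SE 0.30, adjusted p = 3.56e-06). Id2, which encodes an inhibitor of helix-loop-helix factors, kept 10 and had a log2 fold change of 2.68 (limma, SE 0.22, adjusted p = 2.04e-06). Egr2, an immediate early transcription factor gene, kept the most of this list, 16 of 38, and was at 2.77, 1.42 and 1.31 TPM at 0h and 2.93, 2.55 and 2.57 at 48h, which did not pass. Tlr4, the endotoxin receptor gene, kept 5 of 23, at 2.61, 2.89 and 2.30 TPM at 0h and 9.91, 9.51 and 7.95 at 48h, where the log2 fold change of 1.77 missed the limit and that with median-of-ratios scaling, 2.18, did not. The macrophage genes Csf1r, Spi1 and Cd14 had no kept contact, of 21, 2 and 2 contacts.

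Some promoters kept dense contact fields with hardly any RNA. Ccnd2, which encodes cyclin D2, kept 51 of 75 contacts (68.0%), including 51 of the 53 listed at 0h, and no library exceeded 0.27 TPM at any time point. Among 80 homeobox and other developmental genes, 27 had a kept contact, yet only 9 of the 80 were expressed enough to be tested. The list kept 21.5% of 1059 contacts (18.3% of 932 without Hoxb8), against 16.4% of all contacts of this kind. Without the 5 members with most kept contacts it kept 13.7% of 769. Leaving out members for their kept contacts lowers the share of the rest, which is therefore not set against that of all contacts. Hoxc8, a patterning gene, kept 17 of 34 and Tbx3, a T-box factor of limb and heart development, kept 17 of 38 at 768 to 901 kb, and both were listed at 0 in all 12 libraries. Hoxc5 kept 20 of 53 with 0.04 TPM in 1 library and 0 in the others. Neighbouring Hox promoters share PIRs, so their contacts are not separate observations. Hoxb8, a factor of blood progenitors, differed in level from these, with 57 of 127 contacts kept over 2 baits. Its TPM were 22.27, 17.37 and 19.99 before induction, 3.48, 4.65 and 4.04 at 1h and 2.20, 2.51 and 3.89 at 48h, and it was called lower at 1h, 12h and 48h in limma.

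Cell growth and immediate early genes, a list that includes Ccnd2, kept 26.6% of 798 contacts, against 16.4% of all contacts of this kind. The kept contacts were at 20 of 32 genes, and without Ccnd2 the list kept 22.3% of 723. Without the 5 members with most kept contacts the rest kept 15.6% of 379, a share lowered by the way these members were picked. At 48h, 8 of the 30 tested were higher and 3 lower in limma, against 6.43% and 10.0% of all genes tested, with a median log2 fold change of 0.23. Fosl2, an AP-1 factor gene, kept 42 of the 53 contacts listed at 0h. It was at 0.02, 0 and 0.02 TPM at 0h, 0.90, 1.79 and 1.04 at 1h and 6.38, 7.60 and 8.49 at 12h, and its log2 fold change was 3.52 at 1h (limma, SE 0.28, adjusted p = 1.67e-05). Those 42 contacts were thus listed when its TPM were at 0.02 or less, and the lists of 1h and 48h held 53 and 93 contacts. Jun, another AP-1 gene, kept 27 contacts while the number in the list went from 100 at 0h to 48 at 48h, and its TPM went from 4.51, 4.94 and 4.63 to 22.6, 27.9 and 32.03. Ccnd1, which encodes cyclin D1, kept 18 of 53 and was at 15.1, 18.7 and 19.2 TPM at 0h, 2.79, 3.03 and 4.01 at 1h, and 21.7, 24.8 and 27.5 at 48h. Zfp36l2, an mRNA decay factor gene, kept 15 of 60 and followed the same course, at 28.0, 24.3 and 26.4 TPM at 0h, 6.51, 6.06 and 6.72 at 1h and 18.5, 22.6 and 28.5 at 48h. Both were called lower at 1h (limma) and neither at 48h.

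**Figure D5:**
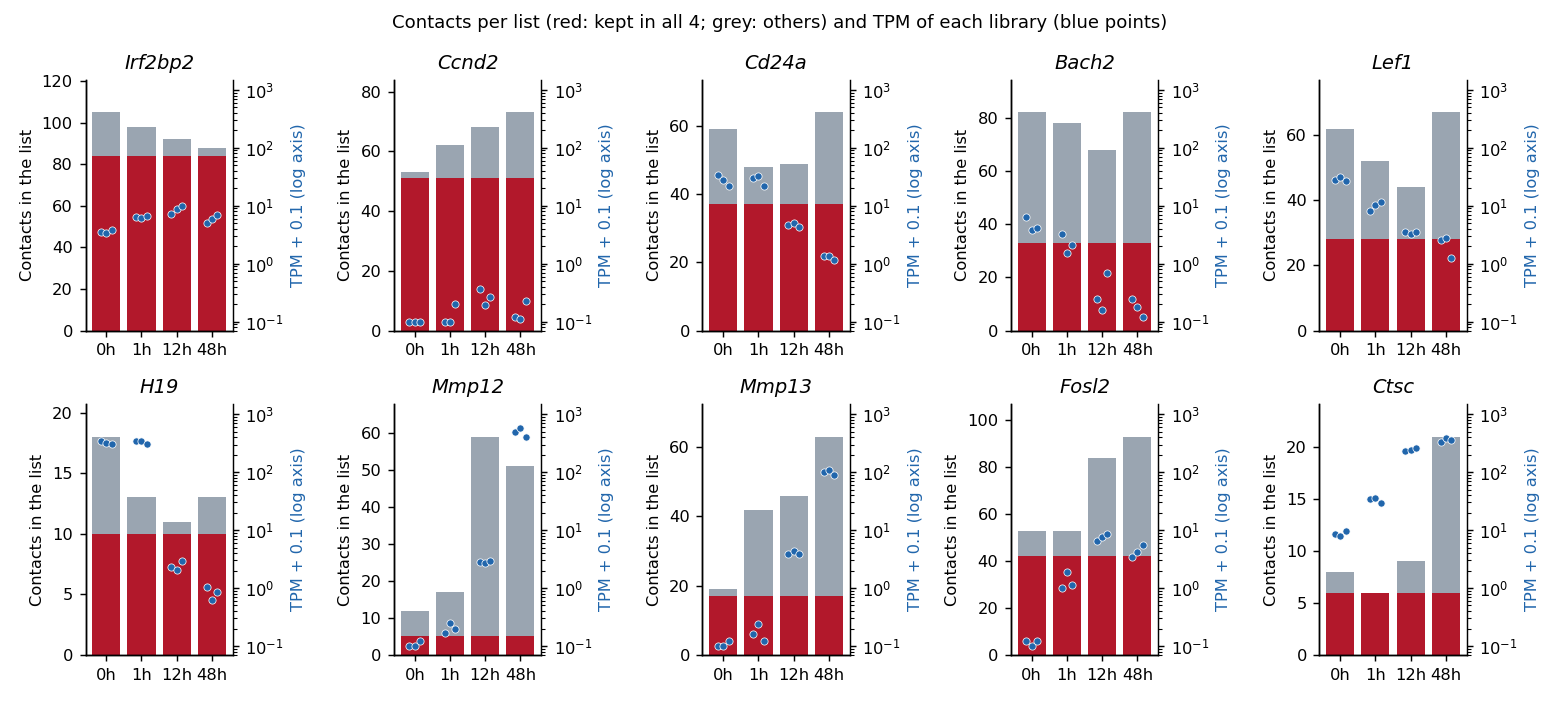
Number of contacts in each list (bars, left axis, kept contacts in red and others in grey) and TPM + 0.1 of each library (blue points, right log axis) for 10 genes. The red part is the same at all 4 time points by definition, 84 at Irf2bp2 and 5 at Mmp12, while the TPM of Mmp12 at 48h lay between 409 and 575 and no library of Ccnd2 exceeded 0.27.

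At the promoters with the most kept contacts RNA levels took different courses. Irf2bp2 was at 3.47, 3.28 and 3.66 TPM at 0h and at 4.91, 5.70 and 6.86 at 48h, and Itga4 at 6.77, 7.03 and 5.32 and at 12.3, 14.8 and 13.7. Their log2 fold changes of 0.72 and 1.09 (limma, SE 0.17 and 0.19, adjusted p = 0.00564 and 0.000589) did not reach the limit of 2. Car2 was called lower at 48h, from 6.69, 6.46 and 6.93 TPM to 0.64, 0.69 and 0.56 (log2 fold change -3.22, limma, SE 0.28, adjusted p = 3e-06). Its 0h list held 94 contacts, its 12h list 63 and its 48h list 87. Snhg6 was also called lower, from 5.02, 5.02 and 2.02 TPM to 0.16, 0.51 and 1.20. Dusp5, with the largest share kept, was at 7.35, 7.41 and 6.27 TPM at 0h and 2.19, 2.91 and 4.20 at 48h, a log2 fold change of -1.20 that did not reach the limit. Spred1 was at 11.04, 8.94 and 7.94 TPM at 0h and 6.87, 6.94 and 6.12 at 48h (log2 fold change -0.47, adjusted p = 0.0587, limma). Zpbp, Gm11998 and Gm5176 were at or below 0.53 TPM in every library.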

How the data were processed

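PCHi-C and RNA-seq data of 4 time points were analysed, and Hi-C files were not used here. The authors processed PCHi-C reads with HiCUP (mm10 genome), combined both replicates of a time point and took interactions from CHiCAGO with a score cut of 5. In the deposited 0h list the value is the CHiCAGO score. In the deposited 1h, 12h and 48h lists it is a whole number, read here as a count of read pairs because 25781 of the 25783 bait pairs listed in both directions have the same number. All 127024 fragments are single HindIII fragments of GRCm38. For RNA-seq the authors trimmed reads with Trim Galore 0.6.2, mapped them with HISAT2 2.1.0 and deposited TPM, for which the submitters' notes also name RSEM. TPM keep no depth, and the depth of the merged PCHi-C libraries is not in the lists, whose kept contacts hold 796621, 615264 and 758498 read pairs at 1h, 12h and 48h.

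Genes were placed on baits by their GENCODE release M21 transcription start sites, all within the files' build. Genes below a mean of 0.1 TPM were left out, and limma 3.58.1 (R 4.3.3) was fitted to the other 16415 on log2(TPM + 0.1), all 12 libraries in 1 model, with Benjamini-Hochberg adjustment. The replicates are biological according to the labels, and nothing states that the numbers pair samples across time points. Other steps used Python 3.11.15, pandas 2.3.3, numpy 2.4.6, scipy 1.17.1 and matplotlib 3.10.9. Wilson intervals have a level of 95%.

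The members, gene lists and rules were chosen with earlier results of these data known. Genes were named if they lay on the 10 baits with most kept contacts, the 5 with the largest kept share, or the 5 PIRs kept with most baits, if they were the 5 with the largest increase or decrease at 48h among called genes with at least 3 kept contacts, a mean TPM of at least 1 and no overlap, or if they were among the up to 6 members of each list with most kept contacts. Macrophage genes without kept contacts, the genes of printed sequences and single members of the marker lists were named after their values were seen. Alternatives varied the rule for contacts, the motif, the pseudocount, the filter, the scaling, the threshold, the replicates, the replicate block and the gene type.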

Additional observations from a re-analysis of the deposited data

How the results depend on the processing

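Contact lists without replicates limit every count of kept contacts to the libraries that were merged, and a low 0h score or few read pairs decide presence in a list for many contacts. With a PIR within 10 kb counted as the same, 66086 contacts listed at 0h were kept (median distance 194 kb), and with a 0h score of at least 10 there were 14103 (190.5 kb). The median distance was 177 kb between nearest fragment ends, 160.0 kb with no limit on distance, and 182, 185 and 182 kb when the 1h, 12h or 48h list was left out. A bait defined within each list gave the same 33316 by construction. The share of kept PIRs with a CTCF motif was 41.9% with a consensus of 9 letters, 5.34% in fragments of at most 10 kb and 7.56% with 1 contact per bait, and with 9 letters 30.1% of pairs pointed inward.

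For genes with a kept contact, a pseudocount of 1 gave 34 higher and 6 lower at 1h, 103 and 42 at 12h, and 125 and 264 at 48h. A log2 fold change beyond 1 gave 757 and 83, 864 and 391, and 609 and 1507. Median-of-ratios scaling gave 54 and 49 at 1h. Leaving out each replicate in turn gave 130 to 156 and 22 to 31 at 1h, 235 to 288 and 106 to 135 at 12h, and 266 to 303 and 605 to 755 at 48h. With the replicate block there were 148 higher and 28 lower at 1h, 269 and 123 at 12h, and 282 and 664 at 48h. Samples with the same number had correlations of -0.012 to 0.257 in their deviations, so the numbers were not taken to pair the samples. The median TPM at 0h was 1.34 for protein-coding genes, 0.460 for baits with the start of 1 gene and 0.530 with at least 5 kept contacts. The cause of these shifts was not tested.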

Other observations

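Ribosomal protein genes, which make the protein part of the ribosome, kept 18.4% of 1185 contacts, against 16.4% of all contacts of this kind. The kept contacts were at 38 of 76 genes with a bait. Without the 5 members with most kept contacts the rest kept 16.3% of 859, a share lowered by the way these members were picked. In limma 25 of 77 were lower at 48h, against 10.0% of all genes tested, and none higher, with a median log2 fold change of -1.80, and 11 of the 38 with kept contacts were lower. Rpl7 kept 22 of 64 contacts, Rps27 18 of 74 and Rpl9 10 of 25. Rpl9 was at 117, 128 and 116 TPM at 0h and at 24.2, 22.9 and 46.2 at 48h, and its log2 fold change of -2.02 was -1.61 with median-of-ratios scaling, where it was not called. Many ribosomal protein genes have processed pseudogenes that can take part of their reads.

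Genes of CTCF and of cohesin and its loaders, which form the loops described above, kept 14 of 150 contacts (9.33%). Over all contacts of this kind the share was 16.4%. The 14 contacts lay at 6 of 14 genes with a bait. Nipbl, the cohesin loader gene, kept 6 of 26. Cdca5, which encodes the cohesin stabiliser sororin, kept 1 of 7 and was called lower at 48h, from 1.84, 2.55 and 2.17 TPM to 0.12, 0.05 and 0.07 (limma). Ctcf kept none of 5. In limma 4 of the 15 genes were lower and none higher at 48h, against 10.0% and 6.43% of all genes tested.

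Among markers of other cell types 6 genes kept contacts, 20 of the list's 178 (11.2%), against 16.4% of all contacts of this kind. Cd4, the T cell co-receptor gene, kept 5 of 27 and Col1a1, a collagen gene, 1 of 2, both at 0 TPM in every library, whereas Pecam1, an adhesion gene of endothelium and some blood cells, kept 1 of 23 and was at 4.62 to 7.42 TPM in the 12 libraries. By chromosome the kept share ran from 12.5% on X to 19.2% on chromosome 12, with Y (37 contacts, 3 kept) left aside.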
